A study of Mus musculus with 6 samples.

Results

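The genes described here are the Wnt ligands, their receptors and their antagonists as expressed in mPASMCs (smooth muscle cells from the pulmonary artery of the mouse), together with the proteins that secrete the ligands, the R-spondin module that sets receptor turnover, and the core of the beta-catenin branch. Members were chosen by gene symbol among the protein-coding genes of the count table. The rule uses no measured value, although it was set with earlier results of these data known. The rule found 65 members among 55487 genes, and 38 of the 65 had enough reads to be tested. By role these were 19 ligands, 2 secretion genes, 10 frizzled receptors, 5 co-receptors, 9 genes of the R-spondin module, 11 antagonists, 5 cytoplasmic genes and 4 Tcf/Lef transcription factors.

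Purchased mPASMCs were transfected with a control small interfering RNA (si-NC) or with one directed at the long noncoding RNA *Snhg18* (si-Snhg18), and poly(A) RNA was sequenced from 3 libraries of each group. The labels number the libraries as repeats 1 to 3 in both groups and call the groups control and *Snhg18* knockdown. They give neither the oxygen level nor the time after transfection, and no source says that the repeats are separate cultures, so p-values measure only the spread between these libraries. The comparison of si-Snhg18 with si-NC asks which transcripts differ after knockdown of *Snhg18*.

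Wnt proteins are secreted lipid-modified signals. Porcupine (*Porcn*) attaches the lipid and Wntless (*Wls*) carries the ligand to the cell surface, where it binds a frizzled receptor together with a co-receptor. With *Lrp5* or *Lrp6* this stabilises beta-catenin (*Ctnnb1*), which moves to the nucleus and activates genes with Tcf/Lef factors, while *Ror1*, *Ror2* and *Ryk* are associated with the branches that act without beta-catenin. Secreted Sfrp and Dkk proteins limit the signal outside the cell, and R-spondins, bound to Lgr receptors, strengthen it by removing the ubiquitin ligases *Znrf3* and *Rnf43*, which otherwise clear frizzled receptors. In the pulmonary artery wall, Wnt signals are known as regulators of smooth muscle growth and of vessel remodeling.

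RefSeq promoter sequences of GRCm38.p6 were at hand for 43 of the 65 members, and 3 windows of 250 bases before a transcription start are printed. *Wnt11* and *Lgr4* are shown because they are a ligand with lower and an R-spondin receptor with higher levels in si-Snhg18, and *Wnt5b* because it is the other ligand that holds the motif bound by Tcf/Lef factors. Capitals mark exact matches on either strand to the Tcf/Lef core CTTTGAT (reverse ATCAAAG) and to the GC box GGGCGG (reverse CCGCCC).
*Wnt11*, chr7:98834862-98835111, plus strand: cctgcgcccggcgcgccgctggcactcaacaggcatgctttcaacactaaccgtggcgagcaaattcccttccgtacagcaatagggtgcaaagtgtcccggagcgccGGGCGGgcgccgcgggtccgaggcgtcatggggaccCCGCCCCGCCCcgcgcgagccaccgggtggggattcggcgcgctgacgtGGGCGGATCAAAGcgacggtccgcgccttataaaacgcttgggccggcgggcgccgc
*Wnt5b*, chr6:119449387-119449636, minus strand: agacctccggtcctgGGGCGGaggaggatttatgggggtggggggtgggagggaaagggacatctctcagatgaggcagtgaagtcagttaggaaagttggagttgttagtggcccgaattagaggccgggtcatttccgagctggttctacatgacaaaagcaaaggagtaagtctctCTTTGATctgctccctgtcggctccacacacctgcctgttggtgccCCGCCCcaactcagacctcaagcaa
*Lgr4*, chr2:109917397-109917646, plus strand: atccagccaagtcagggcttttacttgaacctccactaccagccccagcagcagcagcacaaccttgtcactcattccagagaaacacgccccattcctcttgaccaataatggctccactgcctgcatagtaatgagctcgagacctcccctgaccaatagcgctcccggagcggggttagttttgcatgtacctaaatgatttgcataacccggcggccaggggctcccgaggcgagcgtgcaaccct
The *Wnt11* window held 1 Tcf/Lef core, which starts 51 bases before the transcription start and directly adjoins a GC box, and 4 GC boxes in all, of which a reverse pair overlaps by 1 base. In the *Wnt5b* window the core lies 71 bases before the start, beside 2 GC boxes, and the *Lgr4* window held neither motif. *Wnt11* and *Wnt5b* have other annotated starts, whose windows are not printed and held no Tcf/Lef core. Over windows of 250 bases, the Tcf/Lef core was present in 2 of the 43 members (4.65%) and in 3.72% of 27025 genes with a promoter. A gene with several windows was counted when any of them held the motif. The GC box was present in 32 of the 43 members (74.4%) and in 35.4% of all genes. No filter for gene type or expression was applied to the 27025 genes, whereas the members are protein-coding. The sets are therefore not matched, and the difference between the shares was not tested. These are matches of letters and not binding sites shown to be in use.

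Library totals ranged from 18097718 to 25988746 counted reads, so that 3 reads correspond to 0.115 to 0.166 CPM (counted reads scaled to a common library size and normalized for composition). *Snhg18* measured 23.5, 22.4 and 22.2 CPM in si-NC and 10.6, 11.2 and 9.97 CPM in si-Snhg18, a log2 fold change of −1.10 ± 0.10 (SE) with an adjusted p of 0.00727 in edgeR's quasi-likelihood test. Repeat 2 stood apart in both groups: it was the highest or the lowest of the 3 libraries, on the same side in si-NC and si-Snhg18, in 30 of the 38 tested members (78.9%) and in 62.0% of all 14531 tested genes. All 10 smooth muscle markers were tested, and their summed level was 3990 to 4190 CPM in si-NC and 2930 to 3920 CPM in si-Snhg18. Endothelial markers summed to 12.5 to 15.4 CPM over all libraries with *Cldn5* at 0, leukocyte markers to 20.2 to 63.7 CPM with *Adgre1* and *Cd3e* at 0, and epithelial markers to 1.9 to 22.7 CPM with *Sftpc*, *Scgb1a1* and *Krt5* at 0. The 8 fibroblast markers summed to 2290 to 2990 CPM in si-NC and 1420 to 2240 CPM in si-Snhg18, and the 6 pericyte markers to 428 to 539 and 316 to 483 CPM. In such bulk RNA, fewer cells of a type and less RNA per cell cannot be told apart, and the part of these shifts in the results for the Wnt genes was not tested.

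Among the 38 tested members, *Wnt10a* and *Fzd2* fell in si-Snhg18 (adjusted p under 0.05, edgeR's quasi-likelihood test with Benjamini-Hochberg adjustment over all 14531 tested genes) and none rose. These 2 members are 5.26% of those tested, against 7.36% of all tested genes called (3.65% higher and 3.71% lower), so the share of members called was near that of the transcriptome. At an unadjusted p under 0.05, 7 members were higher and 9 lower (42.1%, against 24.9% of all genes, 12.8% higher and 12.1% lower), and DESeq2 called 1 member higher and 7 lower after adjustment, beside 14.2% of all genes. With a change of at least 1.5-fold as a further condition, *Wnt10a* alone was left (2.63% of the members, against 3.67% of all genes). When the repeat number was entered as a block, 17 members passed, 7 higher and 10 lower in si-Snhg18 (44.7% of the members, against 27.2% of all genes, 13.6% in each direction). In 6 of the 10 lower members, and in none of the higher ones, the blocked change was also at least 1.5-fold (10.1% of all genes met both conditions, 5.85% lower). The 3 libraries of each group did not overlap in 15 members (39.5%, against 30.9% of all genes), 5 higher and 10 lower (15.4% and 15.5% of all genes). All 3 same-numbered pairs moved in 1 direction in 28 members (73.7%, against 59.6% of all genes). The median log2 fold change of the 38 members was −0.10, beside 0.01 over all tested genes. Without si-Snhg18 2, the fit without the block called 16 members and 22.1% of all genes, and without any 1 of the other 5 libraries it called 0 members and at most 2.16% of all genes, with 7 to 13 members at an unadjusted p under 0.05.

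**Figure D1:**
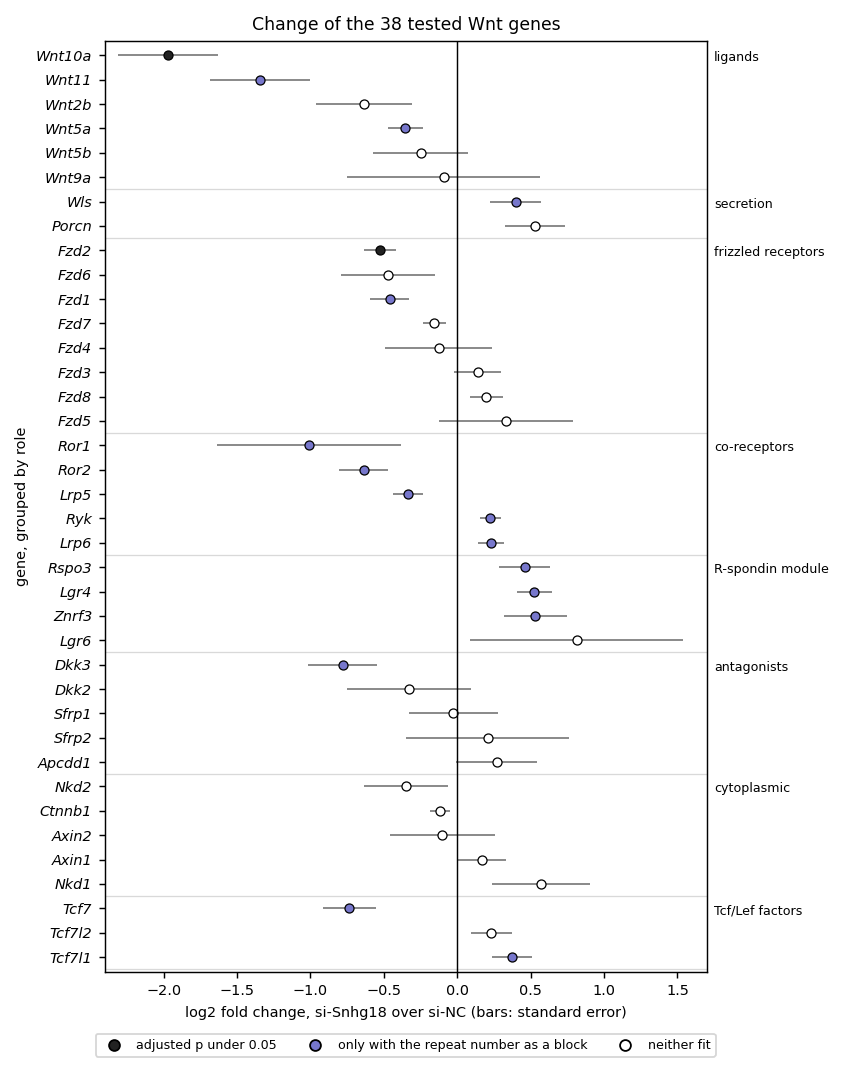
Log2 fold change of each of the 38 tested Wnt genes (x axis, si-Snhg18 over si-NC, bars 1 standard error), grouped by role. Black points passed an adjusted p of 0.05 without the block, blue points only with the repeat number as a block, and open points in neither fit. In this fit without the block, all 6 ligands lie left of 0 and all 4 genes of the R-spondin module right of it.

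Wnt ligands were expressed at a low level. All 6 tested ligands had a negative fold change without the block, beside 7147 of all 14531 tested genes. With the block 5 of the 6 did, *Wnt9a* being at −0.09 ± 0.66 (SE) on the log2 scale without it and at 0.02 ± 0.25 with it. Summed over all 19 ligands, the level was 9.62 ± 0.881 RPKM (CPM per kilobase of exon, mean ± SD, n = 3) in si-NC and 6.79 ± 1.01 RPKM in si-Snhg18, a sum that was not tested. Per library the sum was 9.10, 10.6 and 9.12 RPKM in si-NC and 5.90, 7.89 and 6.59 RPKM in si-Snhg18, so the groups did not overlap. Of the 6 tested ligands 1 fell without the block, and 3 were lower with it.

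*Wnt10a* (ENSMUSG00000026167, chromosome 1 from 74791516 to 74804179 on the plus strand in GRCm38), a ligand best known from tooth, hair and skin, was counted at 3.02, 2.74 and 3.81 CPM in si-NC and at 0.871, 0.50 and 1.10 CPM in si-Snhg18. Every si-Snhg18 library lay below every si-NC library, and the gene kept 25.6% of its si-NC level. It had the largest fold change of the tested members, with a log2 fold change of −1.97 ± 0.34 (SE) and an adjusted p of 0.0255 in edgeR. With the block the adjusted p was 0.00314. The call rested on few reads, 13 to 90 per library, and of the 6 fits that leave out 1 library, 1 kept it (without si-Snhg18 2, adjusted p 0.0135), while the adjusted p reached 0.123 in the others. *Wnt10a* supplied 13.6% ± 3.26 of the summed ligand RPKM in si-NC and 5.10% ± 2.22 in si-Snhg18. Its genomic neighbour *Wnt6*, which ends 6193 bp before *Wnt10a* on the same strand, had between 0 and 3 reads per library.

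*Wnt11*, which is associated with signalling that does not use beta-catenin, was also low, at 1.34, 1.72 and 1.10 CPM in si-NC and 0.514, 0.423 and 0.712 CPM in si-Snhg18. The groups did not overlap. Its log2 fold change was −1.34 ± 0.34 (SE), with an adjusted p of 0.0671 without the block and 0.0412 with it, from 11 to 42 reads per library. An exon of the antisense gene *Gm8398* overlaps an exon of *Wnt11*, and how the counting treated strand is not given in the sources used here.

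*Wnt5a*, the ligand most used to study Wnt signalling without beta-catenin in vessels, was the most abundant ligand per length in both groups. It was at 27.9, 28.6 and 27.5 CPM in si-NC and 19.5, 25.6 and 20.7 CPM in si-Snhg18, again without overlap between the groups. The change was smaller than that of the other 2, a log2 fold change of −0.35 ± 0.12 (SE), and passed with the block only (adjusted p 0.0358, against 0.139 without it). *Wnt5a* made up 41.7% ± 2.90 of the summed ligand RPKM in si-NC and 46.1% ± 1.24 in si-Snhg18, a share that was not tested. As for *Wnt11*, an exon of an antisense gene, *Gm2670*, overlaps an exon of *Wnt5a*.

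Among the remaining tested ligands, *Wnt5b*, a close relative of *Wnt5a*, was at 3.24, 2.29 and 3.39 CPM in si-NC and 2.77, 1.58 and 3.18 CPM in si-Snhg18, and the groups overlapped. *Wnt2b* and *Wnt9a*, chosen after their values were seen, ranged from 1.7 to 4.45 and from 1.61 to 7.15 CPM. Neither passed in either fit. The other 13 ligands had too few reads for the test: *Wnt3a* and *Wnt9b* had no read in any library, and the highest count of the other 11 was 13, in *Wnt2*.

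**Figure D2:**
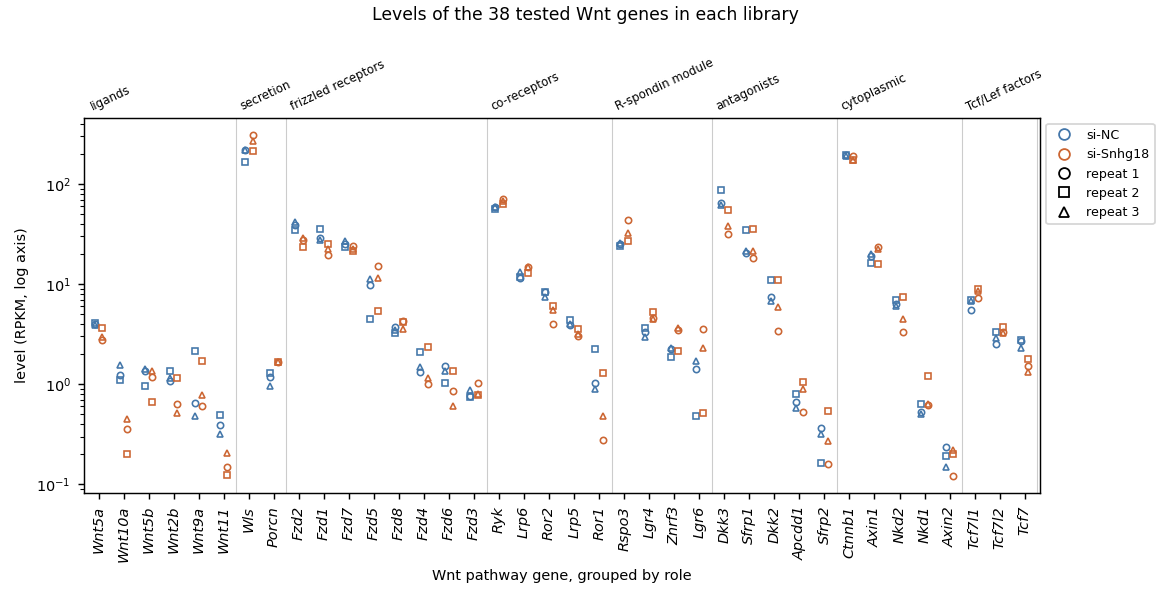
Level of the 38 tested Wnt genes in each library (y axis, RPKM on a log scale), grouped by role and ordered by level within a role. Blue symbols are si-NC and orange symbols si-Snhg18, and circles, squares and triangles are repeats 1, 2 and 3. *Wls* and *Ctnnb1* lie near 200 RPKM, whereas all ligands lie below 5 RPKM.

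Both genes of ligand secretion had positive fold changes, beside 7384 of all 14531 tested genes. *Wls*, the carrier of lipid-modified Wnt proteins, had the highest mean level of all members per length, with 201 ± 31.2 RPKM (SD, n = 3) in si-NC and 265 ± 50.6 RPKM in si-Snhg18, although in si-NC it did not differ from *Ctnnb1* (194 ± 2.63 RPKM) beyond its spread. Its normalized counts were 444, 339 and 454 CPM in si-NC and 640, 434 and 554 CPM in si-Snhg18. Repeat 2 was the lowest library of each group, and the groups overlapped because si-Snhg18 2 lay below si-NC 1 and 3, although each pair rose. The log2 fold change of 0.40 ± 0.17 (SE) therefore passed with the block (adjusted p 0.00535) and not without it (0.22). *Porcn*, the acyltransferase that adds the lipid, measured 2.25, 2.45 and 1.82 CPM in si-NC and 3.13, 3.15 and 3.12 CPM in si-Snhg18. These values did not overlap, but the change (log2 0.53 ± 0.20, SE) missed the threshold without the block (adjusted p 0.175) and with it (0.123).

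Frizzled receptors, which bind the ligands through their cysteine-rich domain, were dominated by *Fzd2*, *Fzd1* and *Fzd7*, with mean levels of 38.4, 30.6 and 25.2 RPKM in si-NC. Summed over the 10 frizzled genes, the level was 110.0 ± 4.75 RPKM in si-NC and 89.7 ± 5.18 RPKM in si-Snhg18, without overlap between libraries and without a test. Of the 8 tested receptors, 1 fell without the block (*Fzd2*) and 2 were lower with it (*Fzd2* and *Fzd1*). The other 6 passed in neither fit, and 3 of the 8 had positive fold changes. *Fzd9* and *Fzd10* had at most 16 reads in any library and were not tested.

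*Fzd2* (ENSMUSG00000050288, chromosome 11 from 102604396 to 102608058 on the plus strand), an intronless gene, was at 142, 127 and 154 CPM in si-NC and 102, 85.6 and 106 CPM in si-Snhg18. All si-Snhg18 libraries lay below all si-NC libraries, at 69.4% of the si-NC mean. The log2 fold change was −0.53 ± 0.11 (SE), with an adjusted p of 0.0408 without the block and 0.00126 with it. The call was kept in 1 of 6 fits that leave out a library (without si-Snhg18 2, adjusted p 0.0237) and lost in the other 5 (up to 0.171). With 1933 to 3626 reads per library, counting error was small here. *Fzd1*, its closest neighbour in level, was at 121, 148 and 116 CPM in si-NC and 81.2, 105 and 93.8 CPM in si-Snhg18. The groups did not overlap, and the log2 fold change of −0.46 ± 0.13 (SE) passed with the block (adjusted p 0.00369) and not without it (0.0913). Repeat 2 was the highest library for *Fzd1* and the lowest for *Fzd2* in both groups, so the ratio of the receptors differed more between repeats than between groups.

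Co-receptors split by direction. All 5 passed with the block, beside 27.2% of all genes, and none without it, beside 7.36%. *Lrp6* and *Ryk* were higher in si-Snhg18, and *Lrp5*, *Ror2* and *Ror1* were lower. *Lrp5* and *Lrp6* are the paired receptors through which Wnt ligands stabilise beta-catenin. *Lrp5* was at 34.6, 39.4 and 35.5 CPM in si-NC and 27.0, 31.9 and 28.0 CPM in si-Snhg18, without overlap (log2 −0.33 ± 0.10, SE, adjusted p 0.104 without and 0.0183 with the block). *Lrp6* was at 107, 110.2 and 123 CPM in si-NC and 140.4, 122 and 138 CPM in si-Snhg18, where si-Snhg18 2 lay below si-NC 3 (log2 0.23 ± 0.09, SE, adjusted p 0.172 without and 0.044 with the block). Per length, the ratio of *Lrp6* to *Lrp5* was 2.93, 2.66 and 3.30 in si-NC and 4.94, 3.62 and 4.66 in si-Snhg18, higher in every si-Snhg18 library. It sets a gene with a positive fold change over one with a negative fold change, adds no separate evidence and was not tested.

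The receptor tyrosine kinases *Ror1* and *Ror2* are receptors for *Wnt5a*, and *Ryk* is a pseudokinase that also binds Wnt proteins. *Ror2* was at 33.4, 33.4 and 29.9 CPM in si-NC and 15.8, 24.3 and 22.0 CPM in si-Snhg18, with no overlap (log2 −0.64 ± 0.17, SE, adjusted p 0.0729 without and 0.013 with the block). *Ror1* varied by repeat, with 5.91, 13 and 5.21 CPM in si-NC and 1.58, 7.54 and 2.80 CPM in si-Snhg18. Each pair fell, but si-Snhg18 2 lay above si-NC 1 and 3, so the log2 fold change was −1.01 ± 0.63 (SE) without the block (adjusted p 0.365) and −1.14 ± 0.24 with it (0.0125). *Ryk* was the most abundant co-receptor per length in both groups, at 57.8 ± 1.77 RPKM in si-NC and 67.6 ± 4.05 RPKM in si-Snhg18 (SD, n = 3). Its 3 libraries per group did not overlap (182, 171 and 180 CPM against 219, 195 and 209 CPM), and the log2 fold change of 0.23 ± 0.07 (SE) passed with the block (adjusted p 0.0231) and not without it (0.111). The ratio of *Ryk* to *Ror2* per length was 7.17 ± 0.573 in si-NC and 13.6 ± 3.95 in si-Snhg18, again a higher over a lower gene and not tested.

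**Figure D3:**
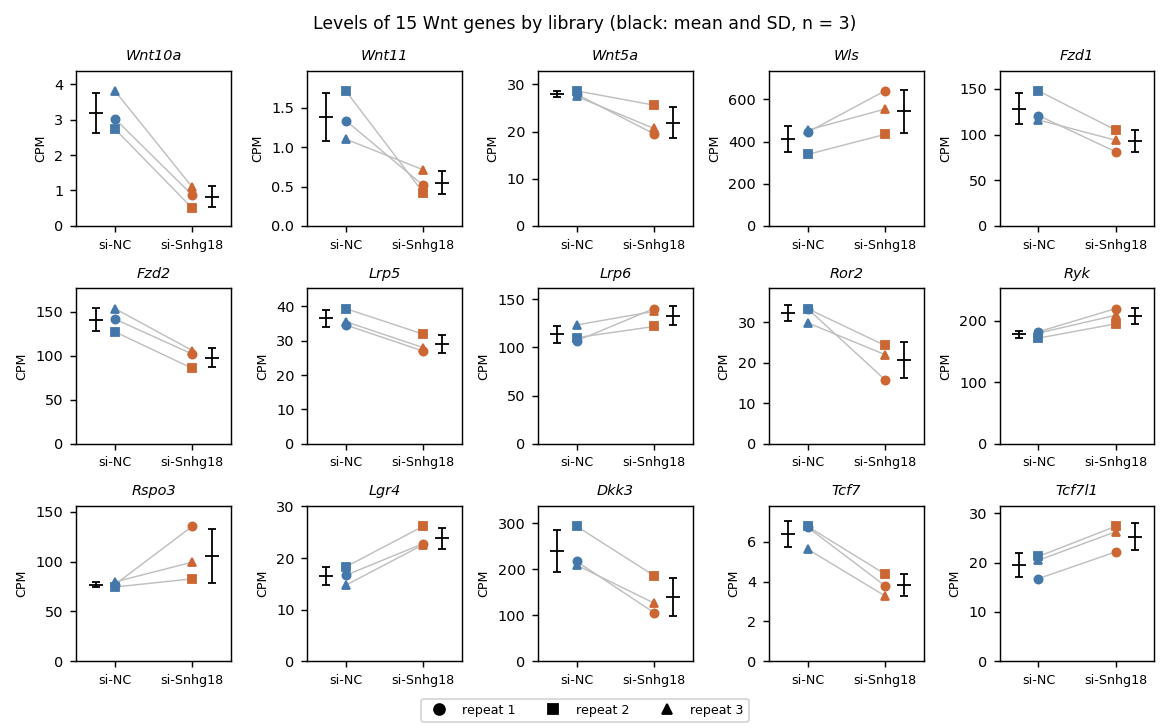
Normalized counts (y axes, CPM, from 0) of 15 Wnt genes in each library, with si-NC in blue and si-Snhg18 in orange. Circles, squares and triangles are repeats 1, 2 and 3, grey lines join libraries of the same number, and black bars give the mean and SD (n = 3). *Wnt10a* and *Fzd2* fell in every pair, while *Wls* rose in every pair although its groups overlap.

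All 4 tested genes of the R-spondin module had positive fold changes, beside 7384 of all 14531 tested genes. With the block 3 of the 4 passed, all higher (75.0%, against 13.6% of all genes higher). None passed without it, beside 7.36% of all genes. *Lgr4*, a receptor for R-spondins, was at 16.7, 18.3 and 14.7 CPM in si-NC and 22.8, 26.1 and 22.6 CPM in si-Snhg18. The groups did not overlap. The log2 fold change of 0.53 ± 0.12 (SE) lay just outside the threshold without the block (adjusted p 0.052) and passed with it (0.00703). *Lgr4* thus stood directly beyond the last member called without the block, *Fzd2*.

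*Rspo3*, the ligand of the module and its most abundant gene per length, was at 77.0, 74.6 and 79.6 CPM in si-NC and 136, 82.7 and 99.5 CPM in si-Snhg18. The si-NC libraries were close together, and the si-Snhg18 libraries were all above them but spread widely, with repeat 1 far above the others. The log2 fold change was 0.46 ± 0.17 (SE), with an adjusted p of 0.169 without and 0.0348 with the block. *Rspo3* made up 78.1% ± 0.464 of the summed RPKM of the module in si-NC and 76.9% ± 1.97 in si-Snhg18. An exon of an antisense gene, *Gm48159*, overlaps *Rspo3*. *Znrf3*, the ubiquitin ligase on which R-spondins act and also a target gene of beta-catenin, was at 14.3, 11.8 and 14.5 CPM in si-NC and 22.1, 13.7 and 23.0 CPM in si-Snhg18. Repeat 2 changed least, and the log2 fold change of 0.53 ± 0.22 (SE) passed with the block (adjusted p 0.0219) and not without it (0.193). *Lgr6*, the second R-spondin receptor above the test's read limit and chosen after its values were seen, ranged from 3.23 to 23.7 CPM. *Rnf43*, *Lgr5*, *Rspo1*, *Rspo2* and *Rspo4* were not tested, with no library above 16 reads.

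Among the 11 antagonists, *Dkk3* and *Sfrp1* accounted for most of the level. *Dkk3*, a Dkk relative whose role in Wnt signalling differs from that of the other members, was at 217, 294 and 209 CPM in si-NC and 106, 186 and 127 CPM in si-Snhg18. The groups did not overlap, and repeat 2 was the highest library of both. The log2 fold change was −0.78 ± 0.23 (SE) without the block (adjusted p 0.102) and −0.80 ± 0.08 with it (0.0011). *Sfrp1*, a secreted decoy that binds Wnt ligands, was at 89.9, 150.4 and 93.5 CPM in si-NC and 80.1, 154 and 93.5 CPM in si-Snhg18. Here the repeats differed and the groups hardly did: 98.3% of the variation of its log2 CPM lay between repeat numbers and 0.352% between groups, and the log2 fold change was −0.03 ± 0.30 (SE), with an adjusted p of 0.967. With the block it was −0.04 ± 0.06 (adjusted p 0.649). *Dkk3* gave 67.4% ± 1.88 of the summed antagonist RPKM in si-NC and 56.1% ± 2.25 in si-Snhg18, and *Sfrp1* 23.6% ± 1.90 and 33.3% ± 1.00. These shares move against each other by construction and were not tested. The 3 other tested antagonists passed in neither fit. *Sfrp5*, *Dkk1* and *Dkk4* had no read in any library, and *Sfrp4*, *Wif1* and *Notum* had at most 22.

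The cytoplasmic core showed no change that passed in either fit. Beta-catenin (*Ctnnb1*) was at 710.2, 706 and 692 CPM in si-NC and 686, 631 and 626 CPM in si-Snhg18. The groups did not overlap, but the difference was small, a log2 fold change of −0.12 ± 0.07 (SE) with an adjusted p of 0.319 (0.151 with the block), and exons of *Mir7090* on the same strand and of *Ulk4* on the other overlap those of *Ctnnb1*. *Axin1*, the scaffold of the complex that degrades beta-catenin, was at 71.4, 60.9 and 75.3 CPM in si-NC and 88.9, 60.3 and 84.3 CPM in si-Snhg18, with the repeat 2 libraries lowest and almost equal. *Axin2*, a negative feedback gene that is widely used as a readout of beta-catenin activity, was near the limit of the test, at 0.993, 0.817 and 0.635 CPM in si-NC and 0.514, 0.846 and 0.932 CPM in si-Snhg18 (13 to 23 reads). The groups overlapped, and the log2 fold change was −0.10 ± 0.36 (SE, adjusted p 0.889), so that neither a rise nor a fall was shown. *Nkd1* and *Nkd2*, feedback inhibitors of dishevelled chosen after their values were seen, ranged from 1.52 to 3.65 and from 13.2 to 29.9 CPM.

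The Tcf/Lef factors, which carry beta-catenin to DNA, went in both directions. *Tcf7* was at 6.74, 6.78 and 5.63 CPM in si-NC and 3.80, 4.38 and 3.29 CPM in si-Snhg18. Its groups did not overlap, and the log2 fold change of −0.74 ± 0.18 (SE) passed with the block (adjusted p 0.0159) and not without it (0.0617). *Tcf7l1*, the family member best known as a repressor, was at 16.8, 21.2 and 20.5 CPM in si-NC and 22.2, 27.3 and 26.2 CPM in si-Snhg18. These also did not overlap, with a log2 fold change of 0.37 ± 0.13 (SE, adjusted p 0.152 without and 0.0188 with the block). *Tcf7l2* (log2 0.23 ± 0.14, SE, adjusted p 0.356) passed in neither fit. The ratio of *Tcf7l1* to *Tcf7* per length was 2.02, 2.54 and 2.95 in si-NC and 4.74, 5.07 and 6.49 in si-Snhg18, so every si-Snhg18 library lay above every si-NC library. This ratio too sets a higher over a lower gene and was not tested. The ratios of *Fzd5* to *Fzd2*, *Dkk3* to *Dkk2* and *Ror2* to *Ror1*, also computed, overlapped between the groups. *Lef1* had 4 to 9 reads per library and was not tested.

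How far a member separated the groups and how far it separated the repeats differed widely within the family. The median share of the variation in log2 CPM that lay between groups was 48.0% over the 38 members and 31.6% over all tested genes, and the share between repeat numbers was 30.3% and 43.2%. In 16 of the 38 members (42.1%) the repeat number took the larger share, against 56.5% of all genes. *Wnt10a*, *Wnt11*, *Tcf7*, *Lgr4*, *Fzd2* and *Porcn* had over 80% between groups. At the other end were *Sfrp1* and *Wnt5b*, with 98.3% and 80.6% between repeats, and *Wnt9a*, *Fzd5*, *Fzd4* and *Lgr6*, chosen after their values were seen, with 85.6% to 92.4%. *Fzd5*, for example, was at 68.2, 31.0 and 77.1 CPM in si-NC and 105, 37.6 and 78.8 CPM in si-Snhg18, with repeat 2 far below the other libraries in both groups. Such values are descriptions of 6 libraries and carry no test.

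**Figure D4:**
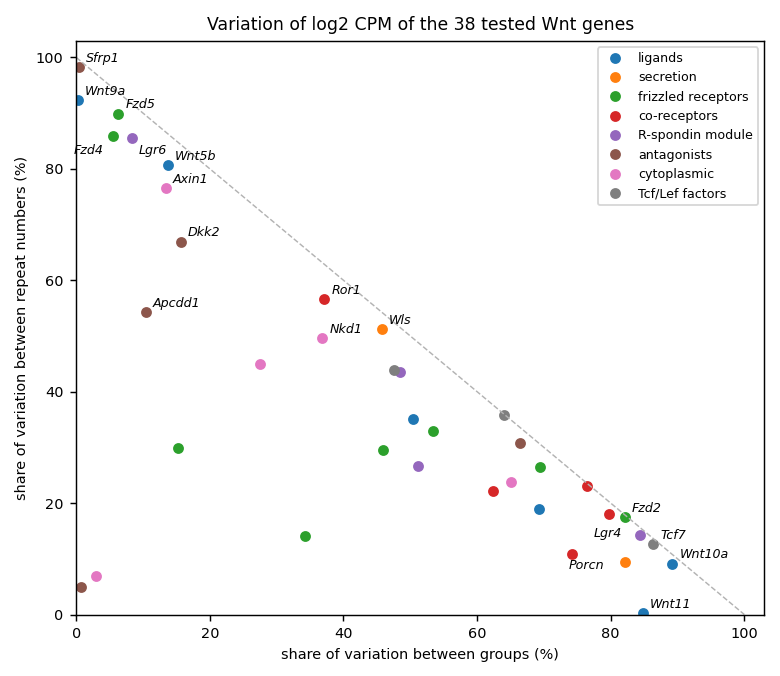
Share of the variation of log2 CPM between the groups (x axis, %) and between the repeat numbers (y axis, %) for each of the 38 tested Wnt genes, coloured by role. On the dashed line both shares sum to 100%. *Sfrp1*, at 98.3% between repeats, and *Wnt10a*, at 89.2% between groups, lie at opposite ends.

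The other genes of the pathway were taken from a list of 82 that the rule for members leaves out, and 75 of them were tested. In the fit without the block 7 of these rose and 2 fell (12%, against 7.36% of all genes), and with the block 19 were higher and 14 lower (44.0%, against 27.2%). The median log2 fold change of the list was 0.04. Most of those that rose belong to the intracellular machinery, in which 34 genes were tested, 5 rose and 1 fell (17.6%, against 7.36% of all genes). A positive sign was held by 24 of the 34, and by 7384 of all 14531 tested genes. With the block 13 of the 34 were higher and 3 lower (47.1%, against 27.2% of all genes, 13.6% in each direction).

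The machinery genes that rose have different roles in the pathway. *Apc*, a scaffold of the destruction complex, was at 151, 138 and 152 CPM in si-NC and 219.6, 179 and 198 CPM in si-Snhg18 (log2 0.44 ± 0.09, SE, edgeR adjusted p 0.0439). *Fbxw11*, a subunit of the ubiquitin ligase that recognises phosphorylated beta-catenin, rose by 0.35 ± 0.07 on the log2 scale (adjusted p 0.042), and *Tle3*, a corepressor that binds Tcf factors, by 0.36 ± 0.08 (adjusted p 0.0447). *Ctbp1*, another corepressor, rose by 0.40 ± 0.09 (adjusted p 0.0447), and *Csnk1g1*, a kinase of the casein kinase 1 family that can phosphorylate *Lrp6*, by 0.40 ± 0.06 (adjusted p 0.0181). All 5 had groups that did not overlap. *Tnks2*, a tankyrase that marks axin for degradation, was at 185, 185 and 188 CPM in si-NC and 156, 147 and 154 CPM in si-Snhg18 and fell (log2 −0.29 ± 0.06, SE, adjusted p 0.0376), whereas its paralog *Tnks* was higher with the block only (log2 0.40 ± 0.13, SE, adjusted p 0.12 without and 0.0044 with it). *Dvl1*, *Tle1* and *Apc2* passed with the block only, *Dvl1* and *Tle1* higher and *Apc2* lower.

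Of the 15 tested membrane and secreted modulators, 1 rose and 1 fell without the block (13.3%, against 7.36% of all genes). With it 2 were higher and 4 lower (40.0%, against 27.2% of all genes). *Lrp4*, a receptor that binds Wnt inhibitors, was at 7.25, 7.06 and 7.54 CPM in si-NC and 13.4, 11.1 and 12.5 CPM in si-Snhg18 (log2 0.76 ± 0.13, SE, adjusted p 0.0232). *Frzb*, a secreted frizzled-related antagonist that the naming rule for Sfrp genes does not reach, was at 84.8, 74.2 and 91.0 CPM in si-NC and 53.9, 55.1 and 63.5 CPM in si-Snhg18. It fell by 0.54 ± 0.11 on the log2 scale (SE, adjusted p 0.0367), as far as *Fzd2* in size. *Kremen1*, a receptor for Dkk proteins, was higher and *Cthrc1*, a secreted cofactor of Wnt receptors, lower, with the block only.

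Genes known in other tissues as targets of beta-catenin were read from a list of 40, of which 10 are members as well. Of the 31 tested, 1 fell without the block (3.23%, against 7.36% of all genes), and with it 2 were higher and 7 lower (29.0%, against 27.2% of all genes), so the share called was near that of the transcriptome in the blocked fit. Their median log2 fold change was −0.04. *Cd44*, a hyaluronan receptor, was the gene that fell, from 566, 570.4 and 547 CPM to 420.2, 475 and 417 CPM (log2 −0.36 ± 0.07, SE, adjusted p 0.0404). *Ccnd1*, which encodes cyclin D1, showed the largest difference among the blocked calls, from 419, 721 and 345 CPM to 63.7, 292 and 104 CPM (log2 −1.69 ± 0.59, SE, adjusted p 0.142 without the block, and −1.90 ± 0.23, adjusted p 0.00196, with it). *Gja1*, the gap junction protein connexin 43, was at 288, 208 and 318 CPM in si-NC and 163, 122 and 175 CPM in si-Snhg18, without overlap (log2 −0.82 ± 0.20, SE, adjusted p 0.057 without and 0.000504 with the block). *Birc5*, *Ccn5*, *Jun* and the member *Tcf7* were also lower, and *Tbx3* and the member *Znrf3* higher, with the block only. Many of these targets are controlled by other pathways too, and among those that are also feedback genes of the pathway, *Axin2* passed in neither fit and *Lef1* had too few reads.

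**Figure D5:**
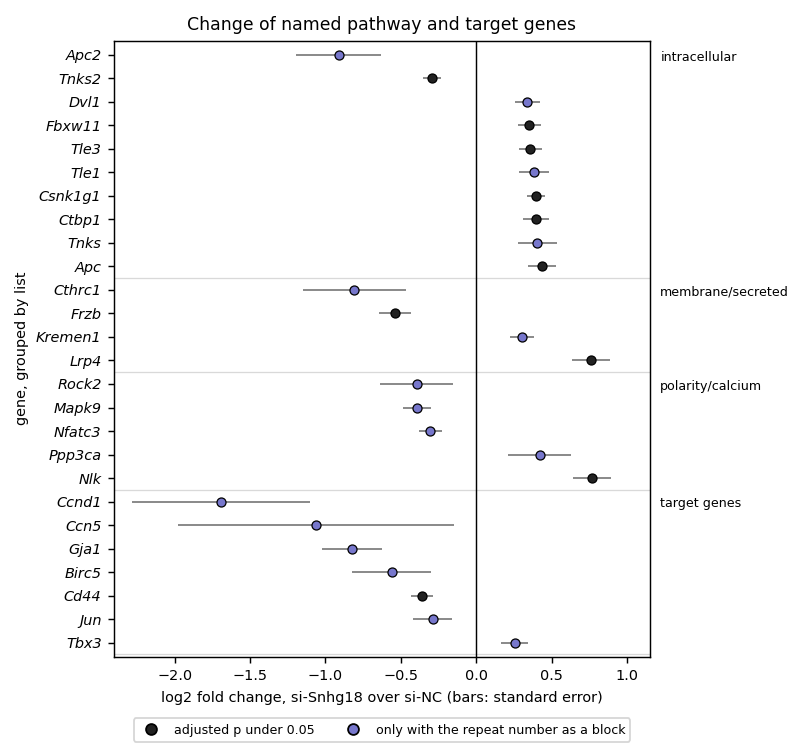
Log2 fold change (x axis, si-Snhg18 over si-NC, bars 1 standard error) of the named genes from the list of other pathway genes and from the target list. Black points passed an adjusted p of 0.05 without the block and blue points only with it. Of the 10 intracellular genes shown, 8 lie right of 0, while 6 of the 7 target genes lie left of it. The genes are shown because they passed in a fit. Over the whole lists, 24 of 34 tested intracellular genes had a positive sign, and 17 of 31 tested target genes a negative one.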

How the data were processed

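Libraries were made from mPASMC RNA with a stranded TruSeq mRNA kit, and the authors deposited unnormalized, whole-number read counts per gene, with each gene's exon length and position on GRCm38. The submitters' processing notes name HISAT2 and mm10; the counting program, its strand setting and its treatment of reads that match several related genes are not given in the sources used here. Groups and repeat numbers were read from the sample titles.

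The test was the quasi-likelihood test of edgeR 4.0.16 under R 4.3.3 (filterByExpr with a minimum count of 10, TMM, glmQLFit and glmQLFTest, Benjamini-Hochberg adjustment over 14531 genes). The common biological coefficient of variation was 0.218. CPM are TMM-normalized, RPKM are CPM per kilobase of exon, and log2 CPM carry a prior count of 2. The SE of a log2 fold change is its absolute value divided by the square root of the test's F statistic, so it includes spread between libraries. The SD is taken over the 3 libraries of a group. Only the floor of 3 reads is limited to counting error. For 3 against 3 libraries the smallest two-sided p of an exact permutation test is 0.1. Fits were also run on simulated counts that held a group effect but no effect of the repeat number. That check therefore cannot decide between the fits with and without the block.

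The planned fit had no block. The repeat numbers come from the labels, which do not say whether same-numbered libraries were prepared together. Deviations from the group means correlated between same-numbered libraries (r = 0.41, 0.742 and 0.359 for repeats 1, 2 and 3 over all tested genes). Such deviations cancel out within a group, so a shift of repeat 2 shared by both groups also raises the values for repeats 1 and 3. Libraries of different numbers were not correlated, so these values do not establish the pairing. A fit blocked on the repeat number is also given wherever it changes a call, and its calls depend on that pairing.

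The members, the gene lists, compiled by hand, and the tests were chosen with earlier results of these data known. Genes named in the text are *Snhg18*, members that passed in either fit, members without overlap and a change of at least 1.5-fold, the 2 most abundant per role, all co-receptors, secretion genes and Tcf/Lef factors, *Ctnnb1*, *Axin1* and *Axin2*, members within 100 kb of one that passed, and genes of the other lists that passed without the block or, up to 10 a list, had the smallest p with it. Other tested members are said to be chosen after their values were seen, and *Fzd7* and *Dkk2* also fall outside this rule. Members that were not tested are named with their read counts. Gene bounds and exons were compared with GENCODE vM21: 64 of 65 members had equal bounds, and 12 had an exon overlapping a gene on the opposite strand. Beside the members for which this is given above, *Fzd5*, *Axin2* and *Tcf7l1* are among the 12. Alternatives were DESeq2 1.42.0 with and without the block, RLE factors, library totals, limma-voom (limma 3.58.1) with and without sample weights, other filters, an adjusted p of 0.1, thinning to the smallest library, and leaving out each library or repeat number.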

Additional observations from a re-analysis of the deposited data

How the results depend on the processing

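The number of Wnt members called was 2, beside 7.36% of all genes. It was 17 with the replicate block (27.2% of all genes), 14 with DESeq2 and the block (21.3%), 8 with DESeq2 (14.2%), 24 with limma-voom and sample weights (41.6%), 7 at an adjusted p of 0.1 (13.5%), and 0 to 16 when 1 library, or 0 to 20 when 1 repeat number, was left out. With at least a 1.5-fold change the main count of 1 became 6, 6, 5, 9 and 4 in the same order, and 0 to 9 or 0 to 10. Other pathway genes went from 9 to 33, 29, 17, 41 and 16, to 5 without a filter on low counts, and to 0 to 24 or 0 to 31. Target genes went from 1 to 9, 8, 3, 13 and 3, and to 0 to 9 or 0 to 10. Among these leave-outs the highest counts came without si-Snhg18 2 or without repeat 2, which also called 22.1% and 27.6% of all genes. Without si-NC 1, si-NC 3, si-Snhg18 3, repeat 1 or repeat 3, no gene of the whole table passed in edgeR. The block changed no other call named in the report than those given there. *Snhg18* kept its direction in all 20 alternatives: its log2 fold change was −1.14 to −1.06 without 1 library, where 3 of 6 fits lost the call, and −1.15 to −1.07 without 1 repeat number, where repeats 1 and 3 did. One direction under every alternative was kept by 22 of the 24 tested members that the naming rule picked and by all 26 named genes of the other lists. *Axin2* reversed to 0.018 with sample weights and to 0.026 with thinned libraries, and ran from −0.26 to 0.12 without 1 library and from −0.41 to 0.28 without 1 repeat number, while *Sfrp1* ran from −0.36 to 0.25 and from −0.08 to 0.02. Of the members named after their values were seen, *Wnt9a*, *Fzd4* and *Fzd5* also changed sign when 1 library was left out (−0.68 to 0.85, −0.62 to 0.10 and −0.02 to 0.65). The cause was not tested. *Wnt10a*, *Wnt11* and *Axin2* rested on 11 to 90 reads per library, and 27 members had too few to be tested.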

Other observations

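Genes of the branches that signal through cell polarity and calcium were read from the same list as the other pathway genes, and 26 of them were tested. In edgeR's quasi-likelihood test 1 rose, *Nlk*, and none fell (3.85% called, against 7.36% of all genes), while with the replicate block 4 were higher and 7 lower (42.3%, against 27.2%). *Nlk*, a kinase that phosphorylates Tcf/Lef factors, was at 52.3, 43.2 and 52.1 CPM in si-NC and 90.9, 71.2 and 88.7 CPM in si-Snhg18, with no overlap and a log2 fold change of 0.76 ± 0.13 (SE, adjusted p 0.0229). Each of the 3 pairs was higher in si-Snhg18. *Mapk9*, which encodes a c-Jun N-terminal kinase, was at 84.3, 86.7 and 77.8 CPM in si-NC and 59.0, 70.6 and 59.7 CPM in si-Snhg18 (log2 −0.39 ± 0.09, SE, adjusted p 0.0585 without and 0.00587 with the block). *Nfatc3*, a transcription factor activated through calcineurin, was lower with the block (adjusted p 0.0138, and 0.0636 without it), whereas *Ppp3ca*, a catalytic subunit of calcineurin, was higher with it (0.00633, and 0.27 without it). *Rock2*, a kinase downstream of RhoA, was lower with the block (0.0118, and 0.358 without it).

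Other Wnt genes that lie beside each other in the genome were read as well, chosen after their values were seen. *Wnt9a*, tested at 1.61 to 7.15 CPM, lies 16175 bp from *Wnt3a* on chromosome 11, which had no read. *Wnt10b* and *Wnt1* on chromosome 15 (11706 bp apart) had at most 10 and 3 reads, and *Wnt9b* and *Wnt3* on chromosome 11 (24328 bp apart) at most 0 and 5.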
